A study of Mus musculus with 21 samples.

Results

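The experiment described here compared *Ebf1*-deficient lymphoid progenitors (LPs) that carried Cas9 and sgRNAs against *Cbfa2t2* with LPs that carried Cas9 and control sgRNAs, by QuantSeq 3′ mRNA sequencing. The genes examined were all those with a mean above 1 CPM (reads of a gene scaled to the same total in every library) over the 3 sgCbfa2t2 and 3 sgControl libraries, which kept 11670 of the 55421 genes in the table. The comparison asked which transcripts of LPs depend on *Cbfa2t2* before Notch stimulation. All 6 libraries came from a mouse C57BL6/J line of *Ebf1*-deficient LPs grown on OP9 stroma with SCF, IL-7 and Flt3L, transduced with Cas9-GFP and then with a pool of 2 sgRNAs carrying an hNGFR marker, and sorted as GFP+hNGFR+ cells 5 days after sgRNA introduction. The sgControl group received sgRNAs against luciferase, a gene that mouse cells lack. The other 9 of the 15 libraries, 3 each of sgLmo2, sgZbtb1 and sgCbfa2t3, were made in the same way and served for the spread of each gene and for a second comparison. Several features limit the model. The cells are 1 line without Ebf1 that does not proceed to the B lineage, the sorted population is a mixture of edited and possibly unedited alleles, and reads from the 3′ end of a transcript do not show whether its coding sequence was cut.

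Cbfa2t2, also called MTGR1, belongs to the ETO family of corepressors together with Cbfa2t3 (ETO2, MTG16) and Runx1t1 (ETO). These proteins do not bind DNA by themselves. They are brought to regulatory elements by E proteins and by complexes built on the bridging factor Lmo2 and Ldb1, and they recruit NCoR and SMRT corepressors with histone deacetylases. LPs are bone marrow progenitors of T, B and innate lymphoid cells, and a Notch signal starts the T-lineage program through *Tcf7*, *Gata3* and *Bcl11b*.

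The sgControl libraries held 1705416 to 1727730 reads and the libraries labelled sgCbfa2t2 held 1879037, 2095447 and 2070291, so depth differed between the groups without overlap, and its part in the results was not tested. One read was worth 0.477 to 0.586 CPM, and 3 reads, the upper limit that a count of 0 allows, were 1.43 to 1.76 CPM. These limits cover counting error only. LP markers were read in the cells. Over the 6 libraries *Flt3* had a mean of 249 CPM, *Il7r* 148 CPM, *Cd34* 283 CPM and *Dntt* 83.3 CPM. *Cd79a*, *Cd3e* and *Ptcra* did not reach the mean of 1 CPM. Of the 26 T-cell receptor and signalling genes listed, 17 reached it, and the list summed to 748 to 813 CPM in sgControl. Of the 26 B-lineage genes listed, 13 reached it, with a sum of 959 to 1201 CPM in sgControl. *Ebf1* itself was read at 305 to 366 CPM in sgControl, and 3′ reads do not tell an intact from a disrupted *Ebf1* transcript. Of the 21 OP9 stromal cell markers present in the table, 2 were tested and 8 were at 0 in all 6 libraries. The summed level of the whole stromal list was 12.2 to 16.3 CPM in sgControl and 10.1 to 11.7 CPM in the libraries labelled sgCbfa2t2. Library 2 of the sgCbfa2t2 group stood apart in several RNA classes described below, and several values are given with and without it.

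*Cbfa2t2* mRNA was not reduced in the libraries labelled sgCbfa2t2. The gene lies on chr2:154436481-154539356 (mm10, plus strand). Its 3′ signal was 11.03, 12.2 and 12.3 CPM in sgControl and 25.5, 23.9 and 16.4 CPM in the libraries labelled sgCbfa2t2, so all 3 targeted libraries lay above all 3 controls. The log2 fold change was 0.82 (SE 0.34) and did not pass the adjusted threshold (limma with Benjamini-Hochberg adjustment over 11670 genes, adjusted p = 0.406). An exact two-sided permutation test gave p = 0.1, the smallest that 3 libraries against 3 allow. The mRNA level did not show the edit, and the direction of every comparison below rests on the label alone. The other 9 gene-targeting libraries lay between 6.69 and 20.4 CPM. The protein was not measured in these files.

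The other ETO family members did not pass the threshold either. *Cbfa2t3*, at chr8:122625141-122699109 and the main member in these cells by summed 3′ reads, was at 210, 189 and 172 CPM in sgControl and 232, 222 and 266 CPM in the libraries labelled sgCbfa2t2. The targeted libraries lay above the controls, with a log2 fold change of 0.33 (SE 0.11, limma adjusted p = 0.267). *Runx1t1* had no read in any of the 15 libraries. QuantSeq gives about 1 tag per transcript whatever its length, so CPM values of different genes may be set side by side as tags, with no length scaling.

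Few genes changed between sgCbfa2t2 and sgControl LPs. The libraries are bulk RNA, in which fewer cells of a type and less RNA per cell cannot be told apart. With limma on log2(CPM + 1), 16 of 11670 genes had an adjusted p under 0.05, which is 0.137% of the genes tested. Of these, 14 fell (0.12%) and 2 rose (0.0171%). The lower genes included the nuclear RNAs *Malat1*, *Kcnq1ot1* and *Xist*, both mitochondrial ribosomal RNAs, the chemokine receptor *Ccr9*, the lymphoid surface marker *Ly6d* and the neuronal genes *Ncam2* and *Gria2*. The genes that rose were *Selenot*, an endoplasmic reticulum selenoprotein, and *H2-Oa*, a chain of the class II chaperone H2-O. In all 16 genes the 3 sgCbfa2t2 libraries did not overlap the 3 sgControl libraries, against 13.8% of all genes tested. The same values gave the calls, so the lack of overlap is not separate support for them.

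**Figure D1:**
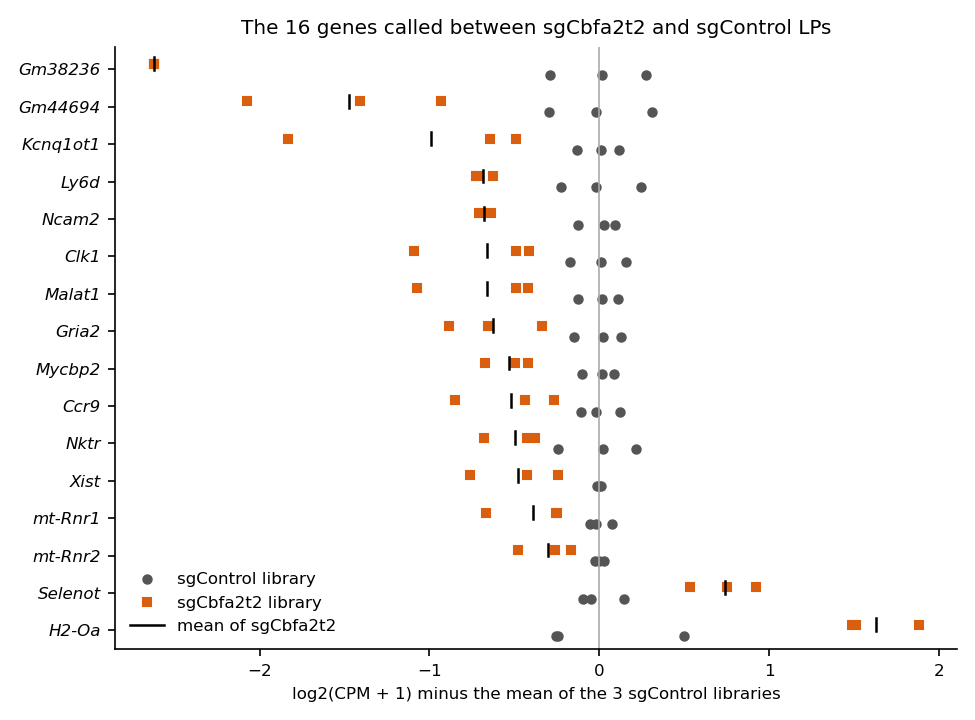
Each row is 1 of the 16 genes with an adjusted p under 0.05, and the x axis is log2(CPM + 1) of each library minus the mean of the 3 sgControl libraries. Grey circles are sgControl libraries, orange squares are libraries labelled sgCbfa2t2 and the black tick is their mean. In 14 genes every orange square is left of every grey circle, and in *Selenot* and *H2-Oa* every square is to the right.

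An unadjusted p under 0.05 was found in 1118 genes, 9.58% of those tested, with 517 higher (4.43%) and 601 lower (5.15%) in the libraries labelled sgCbfa2t2. The median log2 fold change over all genes was 0.0017. Without sgCbfa2t2 library 2 there were 796 genes at an unadjusted p under 0.05. The calls depended on the filter and on single libraries. Without the filter on low values, with 16475 genes tested, none of the 16 passed (limma, with 1380 genes at an unadjusted p under 0.05), while edgeR on the filtered genes called 17, and with the 6 libraries fitted alone 43 genes passed, the 16 among them. Without sgCbfa2t2 library 2 only *Ccr9* and *Malat1*, 2 of the 16, had an adjusted p under 0.05, and without sgControl library 3 by *Malat1* and *Selenot* alone. Without sgControl library 2, 6 of the 16 remained, and *Malat1* passed in each of the 6 fits that left out a library.

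Among the RNAs that fell were long noncoding RNAs retained in the nucleus. *Malat1*, a nuclear speckle RNA at chr19:5795690-5802672, was at 1669, 1838 and 1961 CPM in sgControl and 1293, 863 and 1359 CPM in the libraries labelled sgCbfa2t2. It fell by 0.66 on the log2 scale (SE 0.10, limma adjusted p = 4.14e-05). The highest targeted library was below the lowest control. *Kcnq1ot1*, the antisense transcript that silences the imprinted *Kcnq1* domain in cis, is on the minus strand of chr7:143203458-143296549. It was at 344, 380.3 and 409 CPM in sgControl and 268, 105 and 241 CPM in the libraries labelled sgCbfa2t2, a fall by 0.99 on the log2 scale (SE 0.18, limma adjusted p = 0.00347). Library 2 was the lowest for both RNAs, and without it *Kcnq1ot1* was at -0.57 and did not pass (limma adjusted p = 0.413). Whether the counting used the strand is not given in the sources used here, so *Kcnq1ot1* reads and reads of *Kcnq1* introns cannot be told apart. *Xist*, the RNA that coats the inactive X chromosome, was at 1798, 1812 and 1825 CPM in sgControl and 1350.2, 1068 and 1531 CPM in the libraries labelled sgCbfa2t2, and fell by 0.48 on the log2 scale (SE 0.09, limma adjusted p = 0.00347). The 3 sgControl libraries were close to each other and the 3 targeted libraries lay below them. Against the same sgControl libraries, the log2 fold changes of *Kcnq1ot1* in sgLmo2, sgZbtb1 and sgCbfa2t3 were -0.41, -1.18 and -0.88. For *Xist* they were -0.12, -0.59 and -0.37.

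Both mitochondrial rRNAs fell. *mt-Rnr1*, the 12S rRNA, was at 13889, 15217 and 14265 CPM in sgControl and 12161, 9111 and 12103 CPM in the libraries labelled sgCbfa2t2. Its log2 fold change was -0.39 (SE 0.08, limma adjusted p = 0.00629), and without sgCbfa2t2 library 2 it was -0.25 (limma adjusted p = 0.396). *mt-Rnr2*, the 16S rRNA, was at 33488, 34672 and 33978 CPM in sgControl and 28409, 24476 and 30319 CPM in the targeted libraries, with a log2 fold change of -0.30 (SE 0.07, limma adjusted p = 0.0247). Their summed level was 80.1% of sgControl, and 85.6% without sgCbfa2t2 library 2. Of the 13 mitochondrially encoded mRNAs listed, 8 were tested, 7 had a log2 fold change below 0 and none passed the adjusted threshold. *mt-Nd4* had a log2 fold change of -0.25, *mt-Nd5* -0.27, *mt-Nd2* -0.23 and *mt-Co1* -0.21, and *mt-Nd3* had 0.97, each of the 5 with an unadjusted p under 0.05. By that rule 5.15% of all genes tested were lower and 4.43% higher.

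A class of unspliced transcript models was low as a whole. GENCODE gives the type TEC to single-exon models that rest on polyadenylation evidence and await an experimental test. Of 478 TEC models tested, 396 had a log2 fold change below 0, and their median was -0.62, against 0.0017 for all genes tested. With a pseudocount of 0.1 in place of 1 it was -0.95. An unadjusted p under 0.05 was found in 100 lower and 2 higher models, where 5.15% of all genes tested were lower by that rule. The 602 lncRNA genes had a median of -0.18, with 43 lower and 17 higher by the same rule, and the 10193 protein-coding genes had a median of 0.02, with 429 lower and 487 higher. At a mean of 1 to 10 CPM the 2233 protein-coding genes had a median of -0.0041 and the 434 TEC models one of -0.59. The TEC models summed to 2530.5, 2736 and 2943 CPM in sgControl and to 1979, 1133 and 1879 CPM in the libraries labelled sgCbfa2t2. The highest targeted library was below the lowest control, and the mean was 60.8% of sgControl, or 70.5% without library 2. The exact two-sided permutation p was 0.1, the smallest possible here. Without library 2 the median over the TEC models was -0.43.

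**Figure D2:**
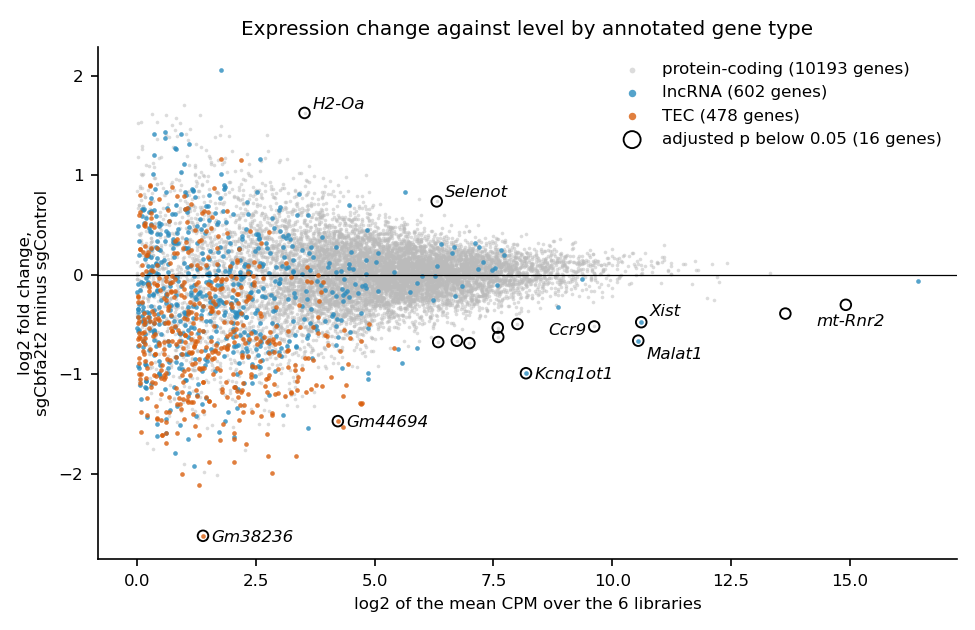
The x axis is the log2 of the mean CPM over the 6 libraries and the y axis the log2 fold change of sgCbfa2t2 over sgControl, with 1 point per gene. Grey points are protein-coding genes, blue points lncRNAs and orange points TEC models, and black rings mark the 16 genes with an adjusted p under 0.05. Orange points lie mostly below 0, with a median of -0.62, while the grey cloud is centred near 0.

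Most of these models lie inside introns. Of the 478 TEC models, 372 were within an intron of a protein-coding gene on the same strand, and their median log2 fold change was -0.66, against -0.45 for the 106 others. For 362 of them the host gene was tested too. The TEC models had a median of -0.66 and their 272 host genes one of -0.05, and 294 models (81.2%) had a lower log2 fold change than their own host. *Gm38236*, on chr2:68906003-68909231 in an intron of the ceramide synthase gene *Cers6*, was read 27 times over the 3 sgControl libraries, at 5.23, 4.05 and 6.45 CPM, and not at all in the libraries labelled sgCbfa2t2. Taking 3 reads per library as the floor, it was at least 3.51-fold lower (limma adjusted p = 0.0279). The call was lost in each of the 6 fits that left out a library (limma adjusted p from 0.0622 to 0.253) and kept in 4 of its 13 alternatives. It was also low in the other sgRNA groups, with means of 1.73 CPM in sgLmo2, 0.664 CPM in sgZbtb1 and 0.369 CPM in sgCbfa2t3. *Gm44694*, on chr7:75707885-75709182 in an intron of *Akap13*, an A-kinase anchoring protein, was at 22.1, 34.1 and 27.0 CPM in sgControl and 13.8, 5.73 and 9.66 CPM in the libraries labelled sgCbfa2t2. It fell by 1.47 on the log2 scale (SE 0.31, limma adjusted p = 0.0163), with no overlap between the groups. The hosts *Cers6* and *Akap13* did not pass the threshold, at -0.22 (limma adjusted p = 0.732) and -0.18 (limma adjusted p = 0.533) on the log2 scale.

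QuantSeq libraries are primed with oligo(dT), which anneals to a poly(A) tail and can also anneal to a stretch of A inside an RNA. The longest A stretch of *Gm44694* on its own strand, 15 bases, is shown in capitals within the window chr7:75708091-75708155 (mm10, plus strand), because the gene was among the 16 called.
*Gm44694*: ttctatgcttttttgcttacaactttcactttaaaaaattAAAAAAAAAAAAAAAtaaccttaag
A stretch of 12 or more A was present in 25% of the 100 TEC models that were lower at an unadjusted p under 0.05 and in 21.2% of the other 378, with median longest stretches of 9 and 7 bases. In *Gm38236* the longest was 5 bases. Which stretch, if any, primed the reads was not tested.

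The same classes were measured in the other gene-targeting groups, which share the sgControl libraries with this comparison. The median log2 fold change of the TEC models against sgControl was -0.35 in sgLmo2, -0.68 in sgZbtb1 and -0.52 in sgCbfa2t3, beside -0.62 in sgCbfa2t2. Their summed level was 1664 to 2934 CPM in sgLmo2, 1462 to 1630 CPM in sgZbtb1 and 1487 to 2188 CPM in sgCbfa2t3. *Malat1* was at 1405 to 1869 CPM in sgLmo2, 1049.8 to 1235 CPM in sgZbtb1 and 1076 to 1281 CPM in sgCbfa2t3. For the TEC sum and for *Malat1*, sgLmo2 overlapped sgControl and the other groups did not. Both mitochondrial rRNAs summed to 47377 to 49889 CPM in sgControl, 33587 to 42422 CPM in the libraries labelled sgCbfa2t2, 42733 to 45665 CPM in sgLmo2, 38506 to 48216 CPM in sgZbtb1 and 42323 to 43914 CPM in sgCbfa2t3. In sgZbtb1 they overlapped sgControl, and in none of these 3 other groups did *mt-Rnr1* or *mt-Rnr2* pass the adjusted threshold against sgControl. Against the mean of these 3 groups, the TEC models of the libraries labelled sgCbfa2t2 had a median log2 difference of -0.06, and *Malat1*, *Kcnq1ot1*, *Xist* and both mitochondrial rRNAs did not pass the adjusted threshold. RNA quality was not given in the sources used here, and its part in these values was not tested.

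**Figure D3:**
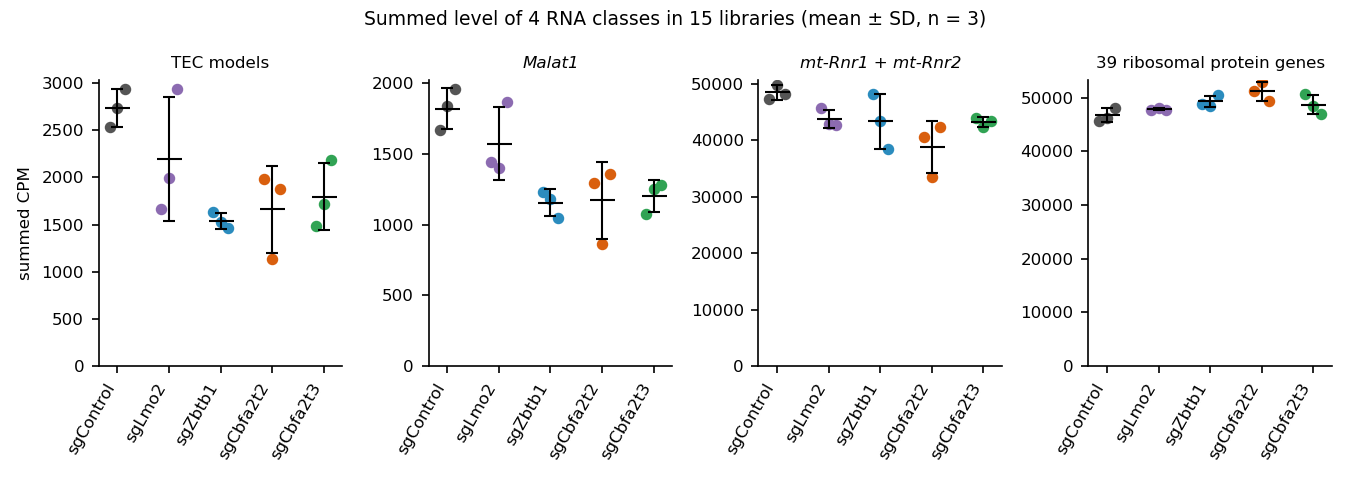
Summed CPM of the TEC models, of *Malat1*, of both mitochondrial rRNAs and of 39 ribosomal protein genes in each of the 15 libraries, by sgRNA group. Points are libraries and bars the mean ± SD (n = 3). For the TEC models the sgControl libraries lie between 2530.5 and 2943 CPM and the libraries labelled sgCbfa2t2 between 1133 and 1979 CPM.

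The direction of protein-coding genes differed with their span. Over 10190 protein-coding genes with coordinates, the 429 genes lower at an unadjusted p under 0.05 had a median genomic span of 48.5 kb and the 486 higher genes one of 13.1 kb, against 23.6 kb for all. Among the 20% of these genes with the shortest span, 8.00% were higher and 2.01% lower by that rule, and the median log2 fold change was 0.09. Among the 20% with the longest span, 2.36% were higher and 8.93% lower, and the median was -0.07. Without sgCbfa2t2 library 2 these medians were 0.07 and -0.06. Median expression was 28.8 to 35.3 CPM across the 5 span classes. For the longest genes the other groups had medians against the same controls of -0.02 in sgLmo2, -0.11 in sgZbtb1 and -0.09 in sgCbfa2t3.

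**Figure D4:**
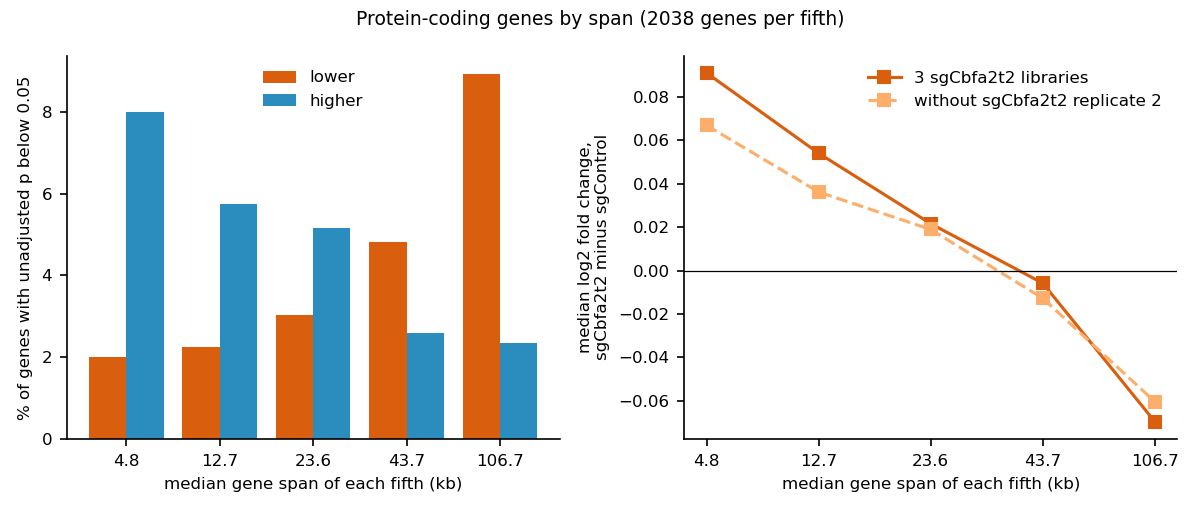
Protein-coding genes were divided by genomic span into 5 classes of equal size, and the x axis gives the median span of each class in kb. The left plot shows the percentage of genes lower (orange) or higher (blue) at an unadjusted p under 0.05 and the right plot the median log2 fold change with all 3 targeted libraries and without library 2. The share of lower genes goes from 2.01% to 8.93% from the shortest to the longest class, and the share of higher genes from 8.00% to 2.36%.

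Of the protein-coding genes that fell, *Ccr9* was the most abundant. It encodes the receptor for the thymic chemokine CCL25, which helps progenitors to settle in the thymus, and lies on chr9:123678439-123784330. It was at 855, 909.9 and 1003 CPM in sgControl and 509.8, 680.0 and 764 CPM in the libraries labelled sgCbfa2t2. All targeted libraries were below all controls, and *Ccr9* fell by 0.52 on the log2 scale (SE 0.10, limma adjusted p = 0.00629). Its mean was 359 CPM in sgZbtb1, 571 CPM in sgCbfa2t3 and 981 CPM in sgLmo2. *Ly6d*, a surface protein that marks lymphoid progenitors directed to the B lineage, is on chr15:74762056-74763620. It was at 134, 155 and 186 CPM in sgControl and 101, 94.5 and 95.6 CPM in the libraries labelled sgCbfa2t2. The groups did not overlap, and *Ly6d* fell by 0.69 on the log2 scale (SE 0.15, limma adjusted p = 0.0201). Its mean was 29.4 CPM in sgZbtb1, 57.9 CPM in sgCbfa2t3 and 200.2 CPM in sgLmo2. For both genes the mean of the libraries labelled sgCbfa2t2 lay between that of sgControl and those of sgZbtb1 and sgCbfa2t3.

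**Figure D5:**
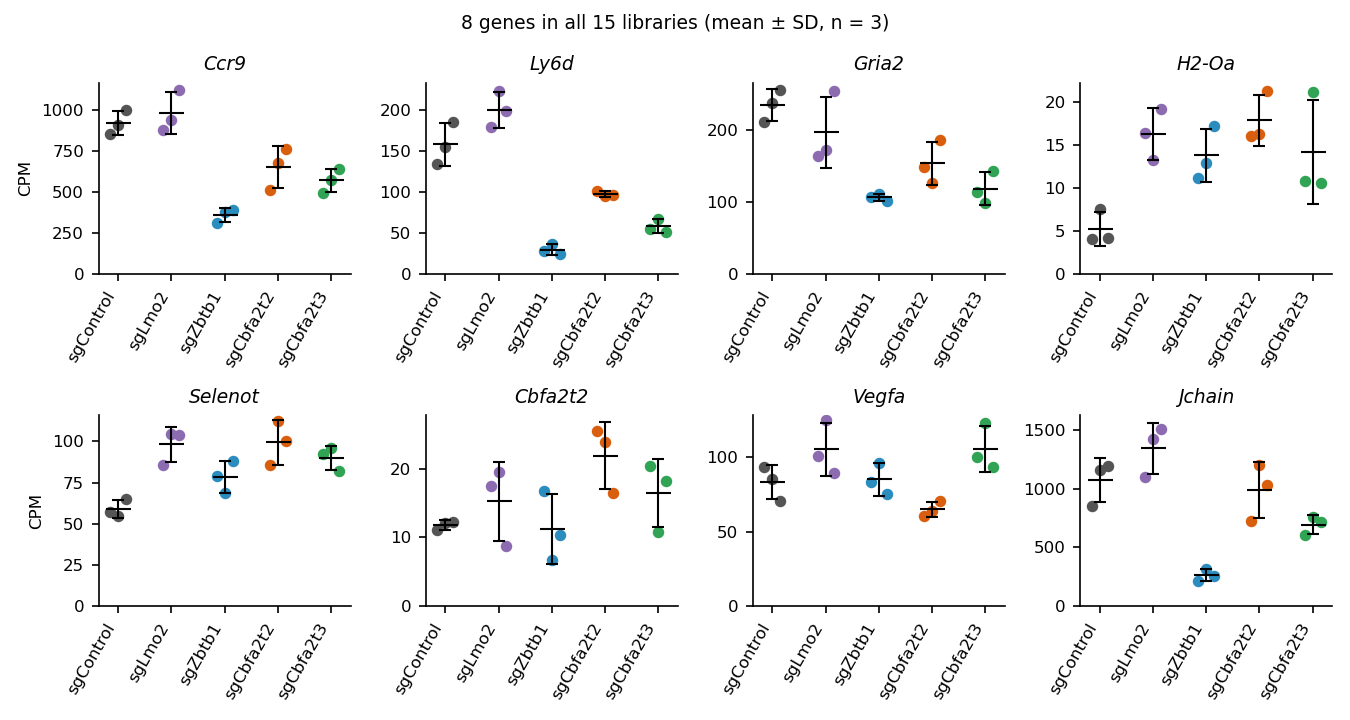
CPM of 8 genes in all 15 libraries by sgRNA group, with each y axis starting at 0. Points are libraries and bars the mean ± SD (n = 3). The libraries labelled sgCbfa2t2 lie below sgControl for *Ccr9*, *Ly6d* and *Gria2* and above it for *H2-Oa*, *Selenot* and *Cbfa2t2*, the last without passing the adjusted threshold.

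Long genes known from neurons were also among those that fell. *Gria2*, an AMPA-type glutamate receptor subunit on chr3:80681450-80802835, was at 211, 238 and 256 CPM in sgControl and 148, 126 and 185 CPM in the libraries labelled sgCbfa2t2, a fall by 0.62 on the log2 scale (SE 0.13, limma adjusted p = 0.0192). The cell adhesion gene *Ncam2*, on chr16:81200697-81626828, was at 102, 106 and 91.5 CPM in sgControl and 61.7, 60.6 and 63.8 CPM in the targeted libraries. The groups did not overlap, and *Ncam2* fell by 0.68 (SE 0.15, limma adjusted p = 0.0197). *Mycbp2*, a large ubiquitin ligase on chr14:103113411-103346814, was at 230.0, 212 and 242 CPM in sgControl and 170, 142 and 161 CPM in the libraries labelled sgCbfa2t2. It fell by 0.53 (SE 0.11, limma adjusted p = 0.0146).

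The remaining lower protein-coding genes were *Clk1* and *Nktr*. *Clk1*, a kinase of SR splicing factors on chr1:58410189-58424066, was at 130.1, 115 and 144 CPM in sgControl and 96.9, 60.1 and 91.8 CPM in the libraries labelled sgCbfa2t2, and fell by 0.66 on the log2 scale (SE 0.15, limma adjusted p = 0.0356). *Nktr*, a cyclophilin-related protein with an SR domain on chr9:121719169-121756843, was at 252, 304 and 348 CPM in sgControl and 222, 186 and 230 CPM in the targeted libraries, and fell by 0.49 (SE 0.11, limma adjusted p = 0.0247). For both genes library 2 was again the lowest, and neither passed without it. Against the same sgControl libraries, the log2 fold changes of *Clk1* in sgLmo2, sgZbtb1 and sgCbfa2t3 were -0.31, -0.65 and -0.59. For *Nktr* they were -0.07, -0.32 and -0.27.

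The genes that rose were fewer. *Selenot*, on chr3:58576636-58593133, was at 56.9, 55.0 and 65.1 CPM in sgControl and 85.7, 113 and 99.98 CPM in the libraries labelled sgCbfa2t2. It rose by 0.74 on the log2 scale (SE 0.14, limma adjusted p = 0.00629) with no overlap. *H2-Oa*, in the class II region at chr17:34092340-34095234, was at 4.07, 7.52 and 4.10 CPM in sgControl and 15.96, 16.2 and 21.3 CPM in the libraries labelled sgCbfa2t2. It rose by 1.63 on the log2 scale (SE 0.35, limma adjusted p = 0.0186), the only protein-coding gene past both the adjusted threshold and a 2-fold change. Both genes were above sgControl in the other groups too, which share its libraries. *Selenot* had means of 98.2 CPM in sgLmo2, 78.3 CPM in sgZbtb1 and 90.0 CPM in sgCbfa2t3, and *H2-Oa* had 16.3, 13.8 and 14.1 CPM.

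By the thresholds of the study for differentially expressed genes (DEGs), an unadjusted p under 0.05, a log2 fold change beyond 1 and a mean above 10 CPM in either group, there were 58 genes (0.497% of those tested), 50 lower (0.428%) and 8 higher (0.0686%). Of them *Gm44694* and *H2-Oa* had an adjusted p under 0.05. Without sgCbfa2t2 library 2 there were 54 DEGs, 34 of them among the 58. In 49 of the 58 the groups did not overlap, which was so for 13.8% of all genes tested. Here too the same values chose the genes. TEC models made up 27 and lncRNAs 3, and 25 of these lay within introns of protein-coding genes, among them 2 models in *Maml3*, 2 in *Med13l* and 2 in *Satb1*. *Gm43274* in *Med13l* was at 15.1, 14.5 and 18.2 CPM in sgControl and 8.51, 2.86 and 1.93 CPM in the libraries labelled sgCbfa2t2. *Gm37465* in *Maml3* was at 10.5, 17.4 and 7.62 CPM in sgControl and 2.66, 0.477 and 4.35 CPM in the targeted libraries. *5830444F18Rik* in *Satb1*, a chromatin organizer of lymphocytes, had values of 39.5, 34.7 and 37.5 CPM in sgControl and 22.9, 9.54 and 14.0 CPM in the targeted libraries. None of these 3 passed the adjusted threshold, with log2 fold changes of -1.82, -1.99 and -1.29. *Gm37472*, not within an intron of a protein-coding gene on its strand, had -1.82, *Gm49839* in *Fkbp5* -1.53, *Gm38082* in *Cux1* -1.29, *5430420F09Rik* in *Maml3* -1.60, *Gm45762* in *Cnot1* -1.41, and the lncRNAs *Gm47664* in *Elmo1* and *Gm20342* had -1.54 and -1.05.

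The 28 protein-coding DEGs, 20 lower and 8 higher, had means up to 28.4 CPM over the 6 libraries, and *H2-Oa* was the one among them that passed the adjusted threshold. Lower values were found for *Mybl1*, a MYB family transcription factor, at 15.1, 13.9 and 8.21 CPM in sgControl and 5.32, 6.68 and 0.966 CPM in the libraries labelled sgCbfa2t2 (log2 fold change -1.51, limma adjusted p = 0.194). Without sgCbfa2t2 library 3 *Mybl1* was at -0.90, short of a 2-fold change. *Kremen1*, a receptor for the Wnt inhibitor Dickkopf, was at 11.03, 11.6 and 8.79 CPM in sgControl and 2.13, 3.34 and 3.86 CPM in the targeted libraries (log2 fold change -1.50, limma adjusted p = 0.213). *Csf2ra*, the GM-CSF receptor alpha chain, was at 23.2, 19.1 and 14.1 CPM in sgControl and 6.39, 10.0 and 6.76 CPM in the libraries labelled sgCbfa2t2 (log2 fold change -1.18, limma adjusted p = 0.217). Higher values were found for *Mrps28*, a mitochondrial ribosomal protein, at 25.6, 15.05 and 15.2 CPM in sgControl and 30.3, 49.2 and 34.8 CPM in the libraries labelled sgCbfa2t2 (log2 fold change 1.01, limma adjusted p = 0.108). The others were *Arsa*, a lysosomal arylsulfatase (log2 fold change 1.16), *Kpna2*, a nuclear import adaptor (1.16), *Slc2a6*, a hexose transporter (1.13), *Smpd2*, a sphingomyelinase (1.09), *Ppm1k*, a mitochondrial phosphatase of branched-chain amino acid breakdown (1.03), and *Abcc4*, an export pump (1.03).

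The T-lineage regulators of the study did not pass the threshold in the libraries labelled sgCbfa2t2. *Bcl11b*, a factor of T-lineage commitment, was at 24.4, 20.3 and 18.8 CPM in sgControl and 24.5, 6.20 and 12.1 CPM in the targeted libraries. The groups overlapped, and the log2 fold change was -0.72 (95% interval -1.44 to 0.0097, limma adjusted p = 0.529). *Bcl11a* was at 38.9, 57.3 and 38.1 CPM in sgControl and 34.6, 34.4 and 29.0 CPM in the targeted libraries, without overlap (log2 fold change -0.42, 95% interval -0.90 to 0.05, limma adjusted p = 0.597). *Gata3* had means of 33.9 ± 3.80 CPM in sgControl and 27.3 ± 7.73 CPM in the libraries labelled sgCbfa2t2 (SD, n = 3, log2 fold change -0.33, limma adjusted p = 0.695). When a library was left out, *Bcl11b* ranged from -1.18 without sgCbfa2t2 library 1 to -0.27 without library 2, *Bcl11a* from -0.52 to -0.24, the latter without sgControl library 2, and *Gata3* from -0.54 without sgCbfa2t2 library 3 to -0.21 without library 1. *Tcf7*, encoding TCF1, was at 0.580, 5.21 and 2.35 CPM in sgControl and 1.06, 1.43 and 1.45 CPM in the targeted libraries. The sgControl libraries held 1, 9 and 4 reads of *Tcf7* and the targeted libraries 2, 3 and 3, so the groups overlapped, and the log2 fold change was -0.47 (95% interval -1.70 to 0.75, limma adjusted p = 0.875).

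Gene lists, 23 in all with 537 genes, were then counted, beside a median log2 fold change of 0.0017 over all genes tested. Among the lists, *Ly6d* and *H2-Oa* were the genes past the adjusted threshold. Of 18 tested Notch pathway and early T-lineage regulators, 8 had a log2 fold change above 0 and none passed, with a median of -0.02. The Notch target *Hes5* was at 1.16, 0 and 0.586 CPM in sgControl and 4.79, 4.77 and 0.966 CPM in the libraries labelled sgCbfa2t2. Of 17 tested T-cell receptor and signalling genes, 11 were below 0, with a median of -0.20, and none passed the adjusted threshold. *Cd247*, the TCR zeta chain, was at 8.13, 5.79 and 5.28 CPM in sgControl and 0.532, 3.34 and 1.45 CPM in the targeted libraries (log2 fold change -1.53, limma adjusted p = 0.336). *Cd2* and *Cd28*, adhesion and costimulatory receptors, were at -0.96 (limma adjusted p = 0.461) and -0.83 (limma adjusted p = 0.463) on the log2 scale. When a library was left out, *Cd2* ranged from -1.21 to -0.58, the latter without sgControl library 3, and *Cd28* from -1.24 to -0.23, the latter without sgCbfa2t2 library 1.

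Of 18 tested genes of the ETO family and the Lmo2 complex, none passed the adjusted threshold, with a median of 0.08. At an unadjusted p under 0.05 there were 3 higher and 3 lower, the targeted *Cbfa2t2* among the higher, where 4.43% of all genes tested were higher and 5.15% lower. The E protein gene *Tcf4* was at 190.5, 212 and 209 CPM in sgControl and 151, 161 and 167 CPM in the libraries labelled sgCbfa2t2, with a log2 fold change of -0.35, and *Runx3* and *Runx1* had -0.24 and -0.20. When a library was left out, *Runx3* ranged from -0.40 to -0.15. The bHLH gene *Lyl1*, an Lmo2 partner, had a log2 fold change of 0.24, beside *Cbfa2t3* and *Cbfa2t2* above. Of 23 tested corepressors and histone deacetylases, the main partners of ETO proteins, 12 were above 0, with a median of 0.01, and *Hdac1* alone had an unadjusted p under 0.05 (log2 fold change 0.35, limma adjusted p = 0.304).

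Among 16 lymphoid progenitor markers, 9 were above 0 and *Ly6d* fell. The cytokine receptor *Il7r* was at 175, 155 and 154 CPM in sgControl and 118, 149 and 135 CPM in the libraries labelled sgCbfa2t2 (log2 fold change -0.27, limma adjusted p = 0.432). *Cd34* had a log2 fold change of 0.26 and *Ptprc*, the CD45 gene, -0.19. Of 13 tested B-lineage genes 10 were below 0, with a median of -0.04, or -0.11 without sgCbfa2t2 library 2. *Ebf1* transcripts were at 338, 305 and 366 CPM in sgControl and 271, 249 and 264 CPM in the targeted libraries, without overlap (log2 fold change -0.36, limma adjusted p = 0.143). Of 27 tested genes of IL-7, Flt3 and SCF signalling, 14 were above 0 (median 0.0053, or -0.10 without sgCbfa2t2 library 2). The survival gene *Bcl2* had a log2 fold change of -0.22. None of these passed except *Ly6d*.

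Markers of other blood lineages were counted next. Of 18 tested myeloid genes 10 were above 0 (median 0.01), of 16 stem and multipotent progenitor factors 9 (median 0.10), of 11 innate lymphoid and NK genes 7 (median 0.10) and of 4 erythroid, megakaryocyte and mast cell genes 2 (median -0.06), with none past the adjusted threshold. Without sgCbfa2t2 library 2 these medians were 0.00064, 0.07, -0.01 and -0.03, so that of the innate lymphoid and NK genes changed sign. *Il2rb*, shared by NK and T cells, had a log2 fold change of -0.53, *Ly6a* -0.78, *Itgb7* 0.36, *Itga4* 0.26 and the beta globin gene *Hbb-bt* 0.35. Both tested OP9 stromal markers were below 0, *Timp3* with -1.05 and *Pdgfrb* with -0.11.

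All 39 cytosolic ribosomal protein genes had a log2 fold change above 0, up to 0.34 for *Rps7*, with a median of 0.14, and 17 had an unadjusted p under 0.05, by which 4.43% of all genes tested were higher. None passed the adjusted threshold, and the median was 0.13 with median-of-ratios size factors. Of all 11670 genes, 5802 were below 0. The summed level of the 39 ribosomal protein genes was 45679 to 48181 CPM in sgControl and 49442 to 52913 CPM in the libraries labelled sgCbfa2t2. The mean was 109.6% of sgControl, or 107.8% without library 2, and the groups did not overlap (exact two-sided permutation p = 0.1). Beside the same sgControl libraries, the sum was 48520 to 50562 CPM in sgZbtb1, 47065 to 50653 CPM in sgCbfa2t3 and 47683 to 48181 CPM in sgLmo2. *Rps27* was at 498, 494 and 581 CPM in sgControl and 627, 759 and 602 CPM in the targeted libraries, and *Rpsa* at 656, 637 and 668 CPM in sgControl and 758, 817 and 718 CPM in the targeted libraries. Ribosomal protein genes have many processed pseudogenes, so their counts are uncertain where reads map to copies.

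Of 25 DNA replication genes 19 were above 0 (median 0.13, or 0.07 without sgCbfa2t2 library 2). Among them *Rrm1*, a ribonucleotide reductase subunit, was at 0.27, *Mcm5* at 0.22, *Mcm6* at 0.21 and *Mcm3* at 0.17 on the log2 scale. Of 18 tested Wnt and Myc pathway genes 16 were above 0 (median 0.11), and *Myc* was at 46.5, 22.6 and 29.3 CPM in sgControl and 47.9, 48.2 and 38.2 CPM in the libraries labelled sgCbfa2t2 (log2 fold change 0.49, limma adjusted p = 0.466). *Ccnd2* and *Npm1* had log2 fold changes of 0.20 and 0.16. Of 22 tested Atf4 and amino acid response genes 16 were above 0 (median 0.12, or 0.09 without sgCbfa2t2 library 2), among them *Shmt2* at 0.24. Of 24 glycolysis and TCA cycle genes 15 were above 0 (median 0.11, or 0.03 without that library), among them *Mdh1* at 0.24. Of 25 mitosis genes 14 were above 0 (median 0.06, or -0.01 without sgCbfa2t2 library 2). *Mki67* was at -0.19, and ranged from -0.30 to -0.09 when a library was left out. The 27 tested p53 target genes had a median of -0.05, with *Cdkn1a* at -0.09 and *Xpc* at 0.0042. The 22 cholesterol synthesis genes had a median of -0.06, or 0.02 without sgCbfa2t2 library 2, with *Srebf2* at 0.05. Of 22 tested immediate early and stress genes 12 were above 0 (median 0.06), with *Dusp2* at 0.44, *Dnajb1* at 0.30 and *Hsp90aa1* at 0.16. No gene of these lists passed the adjusted threshold.

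Of 23 tested interferon-stimulated and antigen presentation genes, 5 were above 0 and 18 below, with a median of -0.15, and *H2-Oa* alone passed the adjusted threshold. Within the class II region, the immunoproteasome subunit *Psmb9* was at 117, 104 and 98.5 CPM in sgControl and 115, 158 and 168 CPM in the libraries labelled sgCbfa2t2 (log2 fold change 0.45, limma adjusted p = 0.178), and the peptide transporter *Tap2* at 339, 223 and 199 CPM in sgControl and 303, 324 and 359 CPM in the targeted libraries (log2 fold change 0.41, limma adjusted p = 0.299). Both overlapped between the groups. *Irf7*, an interferon response factor, had a log2 fold change of 1.24 and the RNA sensor *Ifih1* -1.09 (limma adjusted p = 0.315 and 0.351).

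A second comparison set the libraries labelled sgCbfa2t2 against those labelled sgLmo2, sgZbtb1 and sgCbfa2t3, without sgControl. It gave 9 genes with a limma adjusted p under 0.05, 0.0771% of those tested, with 5 higher (0.0428%) and 4 lower (0.0343%), and 776 genes at an unadjusted p under 0.05 (6.65%). None of the 16 genes called against sgControl was among the 9. Lower in sgCbfa2t2 was *Vegfa*, the vascular growth factor, at 60.7, 63.9 and 70.5 CPM in the libraries labelled sgCbfa2t2, 89.8 to 125 CPM in sgLmo2, 75.1 to 96.6 CPM in sgZbtb1 and 93.6 to 123 CPM in sgCbfa2t3. The targeted libraries lay below all 9 others, with a log2 difference of -0.58 (SE 0.12, limma adjusted p = 0.0165), and sgControl was at 71.0 to 93.5 CPM. *Bst2*, tetherin, had a log2 difference of -0.43 (limma adjusted p = 0.0467), and the lncRNAs *Gm17745* and *Gm26917* had -1.53 and -0.37 (limma adjusted p = 0.0176 for both).

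The 5 genes higher in sgCbfa2t2 than the mean of the other 3 sgRNA groups did not pass the adjusted threshold against sgControl. For 4 of them, *Jchain*, *Gsn*, *H19* and *S100a4*, the mean of sgLmo2 was above that of sgCbfa2t2, and sgZbtb1 and sgCbfa2t3 were below it. *Jchain*, the joining chain gene that LPs also transcribe, was at 728, 1197 and 1028 CPM in the libraries labelled sgCbfa2t2, 853 to 1195 CPM in sgControl, 1097 to 1503 CPM in sgLmo2, 217 to 318 CPM in sgZbtb1 and 606 to 760.0 CPM in sgCbfa2t3 (log2 difference from the mean of the other sgRNAs 0.63, limma adjusted p = 6.51e-05). *Gsn*, an actin-severing protein, was at 64.4, 83.5 and 75.4 CPM in the libraries labelled sgCbfa2t2, 61.6 to 82.8 CPM in sgControl, 60.5 to 89.96 CPM in sgLmo2, 22.9 to 30.1 CPM in sgZbtb1 and 36.0 to 47.7 CPM in sgCbfa2t3 (0.76, limma adjusted p = 0.0082). The imprinted lncRNA *H19* (1.04), the calcium-binding protein gene *S100a4* (0.46) and *5031439G07Rik* (0.63) also had their lowest mean in sgZbtb1. Without sgCbfa2t2 library 2 no gene passed in this comparison (limma, with 548 genes at an unadjusted p under 0.05).

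The ChIP-seq peaks used here are those of Cbfa2t3 and Zbtb1 in *Ebf1*-deficient LPs, and binding of Cbfa2t2 was not analysed here. Of 10193 protein-coding genes tested, 22.6% lay nearest to some Cbfa2t3 peak and 29.7% to some Zbtb1 peak. The shares were 30.1% and 38.5% of the 429 protein-coding genes lower at an unadjusted p under 0.05, and 18.9% and 27.9% of the 487 higher. Span moved with these shares, since a Cbfa2t3 peak was nearest to 17.8% of genes in the shortest span class and 33.4% in the longest, and its part was not tested. Of the 9 protein-coding genes past the adjusted threshold, 4 had a Cbfa2t3 peak, *Ccr9*, *Ncam2*, *Nktr* and *H2-Oa*, and 4 had a Zbtb1 peak, *Mycbp2*, *Ncam2*, *Nktr* and *Selenot*. At the *Nktr* promoter both factors had a peak, with scores of 33.2 for Cbfa2t3 and 497 for Zbtb1. The *Cbfa2t2* promoter held a Zbtb1 peak with a score of 31.1.

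*Ccr9* had 3 Cbfa2t3 peaks 12.6, 10.3 and 4.12 kb before the start site that the peak annotation uses, with scores of 199, 106 and 33.9. They lie within the longer *Ccr9* model of GENCODE. *H2-Oa* had 1 Cbfa2t3 peak, 23.3 kb before its start, with a score of 27.3. The central 300 bases of these 4 peaks are shown, since they are the Cbfa2t3 peaks nearest to the lymphoid gene that fell and to the class II gene that rose. The plus strand of mm10 is given 5′ to 3′, and capitals mark the Runx core TGTGGT and the E-box motif CAGNTG, each searched on both strands.
*Ccr9* peak at chr9:123754418-123754717: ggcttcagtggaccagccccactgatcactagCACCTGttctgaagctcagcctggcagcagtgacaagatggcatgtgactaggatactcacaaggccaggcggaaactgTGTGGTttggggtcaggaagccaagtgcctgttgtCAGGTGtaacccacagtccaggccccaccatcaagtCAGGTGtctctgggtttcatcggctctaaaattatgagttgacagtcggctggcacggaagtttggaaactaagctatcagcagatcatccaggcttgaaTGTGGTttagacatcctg
*Ccr9* peak at chr9:123756799-123757098: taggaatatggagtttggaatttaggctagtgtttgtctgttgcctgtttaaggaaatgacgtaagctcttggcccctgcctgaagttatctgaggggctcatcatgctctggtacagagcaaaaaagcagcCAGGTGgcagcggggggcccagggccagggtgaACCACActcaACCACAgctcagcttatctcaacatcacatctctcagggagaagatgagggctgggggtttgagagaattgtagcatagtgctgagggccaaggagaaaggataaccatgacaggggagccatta
*Ccr9* peak at chr9:123762943-123763242: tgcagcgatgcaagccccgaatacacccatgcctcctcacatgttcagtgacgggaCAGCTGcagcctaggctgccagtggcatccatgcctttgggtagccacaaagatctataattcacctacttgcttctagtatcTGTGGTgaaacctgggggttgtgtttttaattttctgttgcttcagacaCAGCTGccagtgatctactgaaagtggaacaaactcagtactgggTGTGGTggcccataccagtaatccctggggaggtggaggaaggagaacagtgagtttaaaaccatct
*H2-Oa* peak at chr17:34068942-34069241: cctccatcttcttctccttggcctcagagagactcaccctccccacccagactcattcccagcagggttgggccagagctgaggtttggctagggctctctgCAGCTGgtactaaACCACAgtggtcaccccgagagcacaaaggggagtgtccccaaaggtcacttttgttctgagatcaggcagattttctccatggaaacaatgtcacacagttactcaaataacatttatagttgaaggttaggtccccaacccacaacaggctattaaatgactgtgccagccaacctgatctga
These 4 windows held both motifs, and no 2 motifs overlapped. Of the other Cbfa2t3 windows of called genes, not printed, 1 of *Ncam2* held both motifs, 1 of *Ncam2* held neither and that of *Nktr* held CAGNTG without TGTGGT. Of 6070 Cbfa2t3 peak windows of the same length, 49.5% held TGTGGT on either strand, 88.2% held CAGNTG and 43.6% held both, against 16.8% and 51.4% of 32851 RefSeq promoters of 300 bases for TGTGGT and CAGNTG. In the libraries labelled sgCbfa2t2 *Ccr9* fell and *H2-Oa* rose. *Ncam2* and *Nktr*, the other called protein-coding genes nearest to a Cbfa2t3 peak, fell. Whether any of these peaks bears on the change of its gene was not tested.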

How the data were processed

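QuantSeq 3′ mRNA libraries (Illumina, single reads) were trimmed with fastp and mapped to mm10 with STAR by the authors. The deposited values were named TPM and are CPM, since the authors scaled each library to the same total of reads and did not divide by length. The read counter, annotation and strand setting are not given in the sources used here. Every value was a whole number of reads (100% within 0.001 CPM), and those reads were recovered for edgeR and DESeq2. The line without a gene was left out and held 4.77e-05% to 5.86e-05% of the total per library. Of the 55421 genes, 55240 matched GENCODE vM21 for gene type and coordinates. Peaks of the ChIP-seq (Bowtie 1.1.1 and HOMER per the labels, from reproducible peaks) were deposited with a peak score, a signal scaled by the authors to a common number of tags, and the nearest gene, which was used as given.

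Replicates were the 3 libraries per group that the study calls biologically independent, and p-values measure the spread between them. Genes with a mean above 1 CPM over the 6 libraries were fitted as log2(CPM + 1) for all 15 libraries with limma 3.58.1 (empirical Bayes with trend, R 4.3.3) and Benjamini-Hochberg adjustment. Alternatives used edgeR 4.0.16 and DESeq2 1.42.0. The plan assumed TPM, and the test for CPM is the same. The test was run on simulated data for this comparison (11670 genes, 200 changed, all of these above 10 CPM). Of the changed genes, 78% of those changed by 1 and 100% of those changed by 2 on the log2 scale passed. Among the unchanged genes 8 passed. No gene at 1 to 10 CPM was changed in the simulation, so these rates do not cover such genes. Chi-square per degree of freedom was 2.17 to 3.41 between replicates, so no library was a copy of another.

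Members and lists were chosen with earlier results of these data known. Named were the ETO family genes, all genes past the adjusted threshold, the DEGs without overlap that changed most (up to 10 each way) or had the lowest p above 30 CPM, list members at an unadjusted p under 0.05 (or else the 2 highest), *Tcf7*, *Bcl11b*, *Bcl11a* and *Gata3*, and up to 5 each way against the other sgRNAs. *Cers6* and *Akap13* as hosts, and the markers in the description of the cells were named after their values were seen. Some items are not reported here.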

Additional observations from a re-analysis of the deposited data

Results flagged for a closer look

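The genes whose response to sgCbfa2t2 differed from the mean response to the other gene-targeting sgRNAs, by a test of that difference (limma adjusted p under 0.05), are given as log2 differences of sgCbfa2t2 minus the mean of sgLmo2, sgZbtb1 and sgCbfa2t3. They were -1.53 for *Gm17745*, -0.58 for *Vegfa*, -0.43 for *Bst2* and -0.37 for *Gm26917*, and 0.46 for *S100a4*, 0.63 for *5031439G07Rik*, 0.63 for *Jchain*, 0.76 for *Gsn* and 1.04 for *H19*. The mean of sgLmo2 was above that of sgCbfa2t2 for *S100a4*, *Jchain*, *Gsn* and *H19*. *Gm26917* lies in a repeat that shares reads with ribosomal RNA, so its count is uncertain. Without sgCbfa2t2 library 2 no gene passed (limma, with 548 genes at an unadjusted p under 0.05).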

How the results depend on the processing

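The 16 genes with an adjusted p under 0.05 became 0 without the filter on low values (limma, with 1380 genes at an unadjusted p under 0.05), 43 with the 6 libraries alone, 8 with protein-coding genes alone (chosen after seeing the data), and 2 to 21 when a library was left out. edgeR gave 17 genes, 15 of them shared with the 16, and DESeq2 gave 16, with 8 shared. The 58 DEGs became 31 with a mean above 10 CPM, 28 with protein-coding genes alone and 54 to 102 when a library was left out, and the rule of the study on unlogged values gave 44. The 9 genes against the other sgRNAs became 1 without the filter, 5 with protein-coding genes alone and 0 to 12 when an sgCbfa2t2 library was left out. The 2 genes called within the lists became 0 without the filter and 0 to 4 when a library was left out. The 8 of 58 DEGs nearest to a Cbfa2t3 peak (13.8%, against 20.4% of all genes tested) became 4 at a score of at least 30 (6.90%, against 12.7%).

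The sources used here do not say what same-numbered libraries shared. Correlations of the deviations of same-numbered sgCbfa2t2 and sgControl libraries were 0.038, 0.013 and 0.036. Between different numbers they were -0.052 to 0.018. Of the 6 libraries, 5 correlated best with their own number, and sgControl library 2 with sgCbfa2t2 library 3 (0.018). With the replicate number as a block, 32 genes passed against sgControl and 25 against the other sgRNAs. The main fit used no such block, and whether same-numbered libraries shared a batch was not tested.

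Over the alternatives of the named genes, 1526 values kept direction and side, 77 lost and 28 gained the threshold, and 16 changed sign, all for genes not called against sgControl. *Xpc* was -0.018 with DESeq2, -0.00855 with edgeR and -0.00683 with size factors. When a library was left out, the log2 fold change ranged from -0.98 to 0.0054 for *Tcf7*, from -0.44 to 0.084 for *H19*, from -0.29 to 0.070 for *Jchain*, from -0.37 to 0.28 for *Pdgfrb*, from -0.16 to 0.00066 for *Cdkn1a*, from -0.14 to 0.095 for *Xpc*, from -0.043 to 0.14 for *Srebf2* and from -0.032 to 0.18 for *Gsn*.

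A count of 0 allows a level of up to 3 reads, 1.43 to 1.76 CPM. DESeq2 adjusted p-values given as NA were left out.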
